A study of Mus musculus with 8 samples.

Results

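The genes described here are 38 genes of DNA replication and mitosis, followed across 8 mouse melanomas read on Illumina bead arrays. They were named as a list, and a gene was kept where a probe had a detection p under 0.05 on at least 1 array, with 1 probe per gene, that of the highest mean. This left 29 of the 38 among the 10461 genes tested: 14 of the 15 genes that license or run replication or drive entry into S phase, and 15 of the 23 genes that drive mitosis. Of the other 9, Ccnb2, Ccna2, Bub1, Kif20a and Ttk had no probe above background on any array, and Gins2, Mki67, Ccnb1 and Aurkb were not analysed here. The gene just inside the detection limit was Ube2c, with a smallest detection p of 0.00251 and a highest reading of 6.03 on the log2 scale. The gene just outside it was Kif20a, at 0.0927 and 5.05.

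The 7 resistant tumours (NRASQ61R off) arose in FVB/n mice with Ink4a/Arf lox/lox alleles and the DCT-TVA transgene, which gives melanocytes the receptor for avian leukosis virus. The mice were infected as newborns with a TRE-NRASQ61R-IRES-Cre virus and a Tet-off virus. Doxycycline in the food then shut the oncogene off, and after a first regression these tumours became resistant. In the 1 control tumour (NRASQ61R on) the oncogene was left on. Its description names an NRAS-IRES-Cre construct without the Tet-off elements, and which virus started it is therefore unclear. All 8 tumours carry the Cre virus meant to delete Ink4a/Arf, the locus of the cell cycle inhibitors p16 and p19, and neither group has an Ink4a/Arf-intact counterpart here. The labels number 7 resistant tumours but do not say that they came from separate mice. The p-values thus speak for the spread of these samples alone, which may not be a spread between mice.

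DNA replication starts from origins that are licensed in G1, when Cdc6 and Cdt1 load the ring-shaped MCM helicase onto DNA. Cyclin E and the E2F transcription factors then open S phase, and E2F binds the promoters of many replication genes. Mitotic genes are switched on later in the cycle, through CHR elements bound by the MuvB complex with B-MYB and FOXM1 and through CCAAT boxes bound by NF-Y. Tumours with more cycling cells carry more of both kinds of transcript. In bulk tumour RNA, fewer cycling cells and less RNA of these genes per cell cannot be told apart.

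The promoters of both groups are shown first, because they differ in the letters that these regulators read. RefSeq promoter windows of GRCm38.p6, from 250 bases before to 50 after the start of each gene, were matched for 13 replication and 18 mitotic genes. The 200 bases before the start follow for 2 replication and 4 mitotic genes whose values are given below. Each reads 5′ to 3′ on the gene's own strand. Capitals mark the E2F core and the CHR on either strand, and neighbouring E2F matches overlap. The E2F core was searched as TTCCCGC, then with other middle letters as TTCGCGC, also as the variant TTGCCGC, and last as the variant TTGGCGC. The CHR was searched as TTTGAA and in its other known form as TTCGAA.
Mcm5 (chr8:75109309-75109508, plus strand): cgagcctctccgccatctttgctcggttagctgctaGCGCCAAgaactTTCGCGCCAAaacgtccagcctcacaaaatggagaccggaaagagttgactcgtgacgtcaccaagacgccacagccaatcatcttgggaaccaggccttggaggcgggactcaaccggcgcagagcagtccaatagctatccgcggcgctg
Mcm6 (chr1:128359706-128359905, minus strand): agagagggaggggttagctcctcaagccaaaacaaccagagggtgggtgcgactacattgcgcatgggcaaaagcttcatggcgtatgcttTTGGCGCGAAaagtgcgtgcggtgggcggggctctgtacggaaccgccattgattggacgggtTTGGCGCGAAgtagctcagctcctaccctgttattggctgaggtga
Cdk1 (chr10:69352913-69353112, minus strand): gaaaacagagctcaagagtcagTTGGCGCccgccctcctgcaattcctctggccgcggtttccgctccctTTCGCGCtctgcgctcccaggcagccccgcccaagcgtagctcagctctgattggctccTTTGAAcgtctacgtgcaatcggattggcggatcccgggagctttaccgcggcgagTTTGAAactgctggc
Top2a (chr11:99024190-99024389, minus strand): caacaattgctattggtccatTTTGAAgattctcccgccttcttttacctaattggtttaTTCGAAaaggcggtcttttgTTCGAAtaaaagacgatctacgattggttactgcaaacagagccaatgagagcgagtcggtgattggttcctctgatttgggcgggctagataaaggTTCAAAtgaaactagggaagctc
Cdc20 (chr4:118437344-118437543, minus strand): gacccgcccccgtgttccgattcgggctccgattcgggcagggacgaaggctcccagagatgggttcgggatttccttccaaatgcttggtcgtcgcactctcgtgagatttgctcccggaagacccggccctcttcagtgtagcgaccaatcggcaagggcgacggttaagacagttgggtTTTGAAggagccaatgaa
Ube2c (chr2:164769729-164769928, plus strand): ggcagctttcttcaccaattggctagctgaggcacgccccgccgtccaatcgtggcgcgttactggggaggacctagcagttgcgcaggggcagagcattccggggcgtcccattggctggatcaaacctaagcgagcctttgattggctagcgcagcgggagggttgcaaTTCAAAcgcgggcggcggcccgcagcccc

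The E2F core stood in the windows of 8 of 13 replication genes (61.5%) and 3 of 18 mitotic genes (16.7%), against 18% of the 8441 tested genes with a window. The CHR stood in 2 of 13 replication genes (15.4%) and 14 of 18 mitotic genes (77.8%), against 16.8% of tested genes. The CCAAT box, letters CCAAT on either strand, stood in 7 of 13 replication genes (53.8%) and 14 of 18 mitotic genes (77.8%), against 43.1% of tested genes. Over all 32851 windows of the table, the E2F core, the CHR and the CCAAT box were in 9.57%, 19.2% and 37.4%. Cdk1, Mki67 and the replication gene Mcm7 each held both the E2F core and the CHR. The CHRs of Cdk1 start 71 and 15 bases before the start of the gene, and that of Cdc20 starts 18 bases before it. With the 250 bases before the start alone, the E2F core was in 5 of 13 replication genes (38.5%), against 14.9% of tested genes. The CHR was then in 50% of the mitotic genes, against 15% of tested genes, because those of Plk1, Aurka and Cenpa, among others, lie after the start. Cdt1 has its E2F cores 19 and 34 bases after the start, and Tyms, which makes the thymidine nucleotide, has no match to any of the 3 motifs. A match describes the letters and does not show that a factor was bound.

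**Figure D1:**
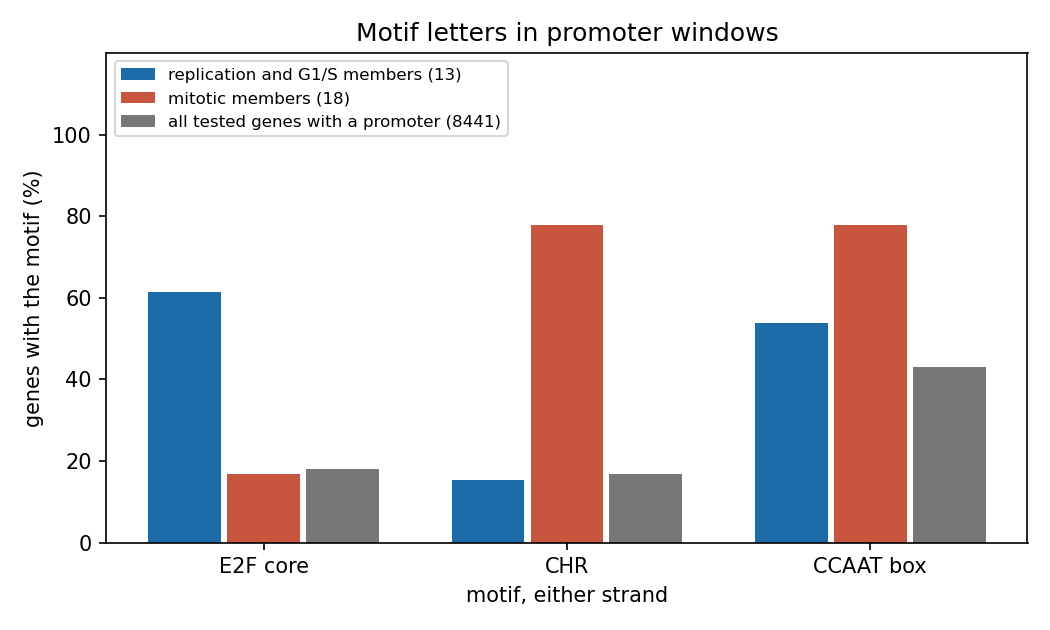
Share of genes (%) whose promoter window holds each motif on either strand, for 13 replication and G1/S genes, 18 mitotic genes and 8441 tested genes. The E2F core was in 61.5% of the replication genes and the CHR in 77.8% of the mitotic genes.

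On the arrays, between 11821 and 12851 of 25697 probes were detected per tumour and precision is limited by how few arrays there are. Of the melanocyte markers, Mitf, Tyr, Tyrp1, Dct, Mlana and Pax3 were above background on no array, so the labelled tissue could not be checked with them. Of the 9 markers 2 were measured, Pmel and Ednrb. They summed to 8.89 to 10.04 in the resistant tumours and 9.66 in the control (log2 of the summed intensity). Skeletal muscle genes summed to 15.29 and 13.06 (log2 of the summed intensity of 11 genes) in resistant tumours 1 and 2. The same sum was 8.44 to 11.11 in the other 5 resistant tumours and 8.56 in the control. Resistant tumour 6 stands apart from the others in many genes, and results that rest on it are given with and without it.

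None of the 29 genes passed the test between the 7 resistant tumours and the control (limma, smallest adjusted p = 0.581), where 0.22% of all 10461 genes passed. At an unadjusted p under 0.05 there were 2 of 29, Cdt1 and Ube2c, where 8.21% of all genes had one. The replication genes leaned upward, with 10 of 14 above the control on average, where 5033 of all 10461 genes were. Their median log2 difference was 0.11. With all 7 tumours the mitotic genes did not, with 7 of 15 above, a share close to that of all genes. Their median was -0.05, and the median of all genes was -0.02. Under median scaling the median of all genes was -0.20, that of the replication genes -0.11 with 6 of 14 above 0, and that of the mitotic genes -0.29 with 3 of 15 above 0. Whether the replication genes lay above the control thus depends on the scaling, and Mcm4, Cdc6, Rfc4, Rrm2, Bub1b, Foxm1, Mad2l1 and Nusap1 change sign with it. With all 7 tumours, the replication median lay above that of all genes under both scalings and the mitotic median below it. Without tumour 6, and without median scaling, the mitotic median was 0.10 with 9 of 15 above 0. The replication median was then 0.21 with 10 of 14 above 0, and that of all genes -0.03. Whether the mitotic median lay below that of all genes thus depends on tumour 6, which was left out after its values were seen. In 2 of 29 genes (6.9%) all 7 resistant tumours lay above the control, where 13.3% of all genes did so, and in 1 (3.45%) all 7 lay below it, where 17% did so. With 1 control, the residual spread comes from the resistant tumours alone.

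**Figure D2:**
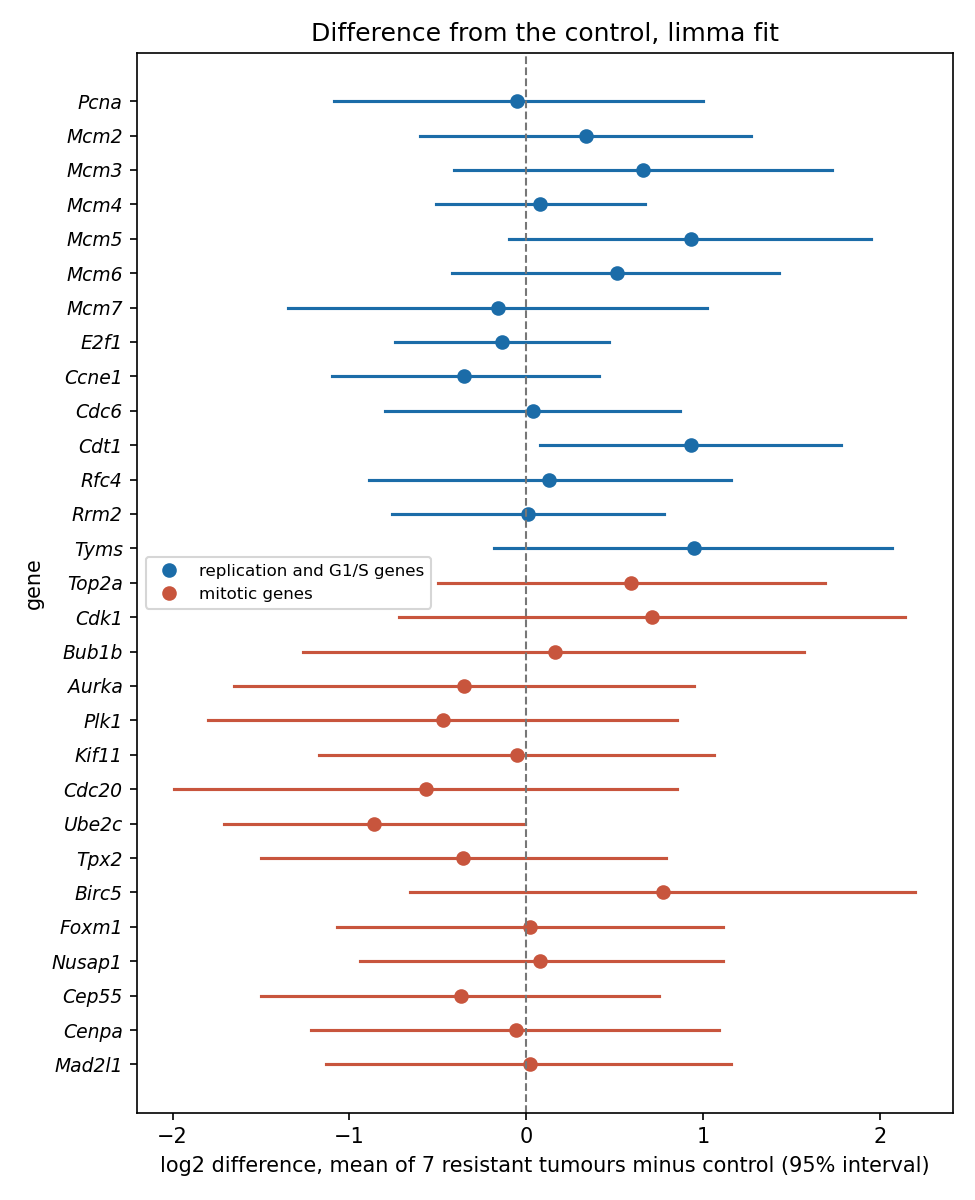
Log2 difference of each gene, mean of 7 resistant tumours minus the control, with the 95% interval of the limma fit. The points run from 0.95 for Tyms to -0.86 for Ube2c, and the intervals of all genes but Cdt1 and Ube2c hold 0.

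The licensing factors Cdt1 and Cdc6 had unlike differences. Cdt1, which loads the helicase and is destroyed once S phase starts, read 9.60, 10.36, 9.84, 10.16, 10.39, 9.50 and 10.09 in resistant tumours 1 to 7, and 9.06 in the control. All 7 resistant tumours lay above the control, and the mean difference was 0.93 on the log2 scale, or 1.9-fold (SE 0.37, 95% interval 0.08 to 1.78, limma adjusted p = 0.581). Its partner Cdc6 read 7.07 at the lowest, 7.65 at the median and 8.14 at the highest in the resistant tumours, on both sides of the control at 7.64. Cdc6 differed by 0.04 (SE 0.36, 95% interval -0.80 to 0.87).

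The 6 subunits of the helicase are the MCM proteins, and their differences from the control were unequal. Mcm5 read 11.34, 11.68, 11.61, 11.71, 11.68, 10.48 and 11.68 in resistant tumours 1 to 7, and 10.53 in the control. Tumour 6 sat at the level of the control and the other 6 lay well above it. The difference was 0.93 (SE 0.45, limma adjusted p = 0.628) with all 7, and 1.10 (SE 0.22, limma adjusted p = 0.143), or 2.14-fold, without tumour 6. Mcm3 had a median of 7.19 in the resistant tumours (6.46 to 7.91), against 6.59 in the control. Mcm6 had a median of 9.79 (8.98 to 10.29), against 9.22 in the control, and Mcm2 one of 9.84 (9.01 to 10.22), against 9.37. For each of these 3 subunits 6 of 7 tumours lay above the control, and the differences were 0.66, 0.51 and 0.34 (limma adjusted p from 0.773 to 0.882). Mcm4 had the smallest SD of the 29 genes among the resistant tumours, 0.20, with readings from 11.34 to 11.95, against 11.63 in the control. Mcm7 was on both sides of the control, from 6.27 to 7.85 with 7.31 in the control.

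The fork proteins showed no difference beyond their spread. Pcna, the sliding clamp of the polymerase, read 7.04 in resistant tumour 7, a median of 6.22 over all 7 and 6.30 in the control. Rfc4, a subunit of the complex that loads the clamp, had a median of 8.37 (7.25 to 8.49), against 8.02 in the control, and its lowest value was in tumour 6. Of the enzymes of nucleotide supply, Tyms, thymidylate synthase, read 9.53, 9.80, 9.88, 10.85, 10.09, 9.66 and 9.29 in resistant tumours 1 to 7, and 8.92 in the control. All 7 lay above the control, with tumour 4 the highest, by 0.95 on average (SE 0.49, 95% interval -0.18 to 2.07, limma adjusted p = 0.664). Rrm2, the S phase subunit of ribonucleotide reductase, differed by 0.01 (SE 0.34), from 7.82 to 8.63 in the resistant tumours with 8.17 in the control.

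The regulators of S phase entry differed by about their SE or less. Ccne1, cyclin E1, had a median of 7.15 in the resistant tumours (6.61 to 7.38), against 7.34 in the control, with 6 of 7 below it. E2f1 had a median of 10.52 (10.26 to 10.84), against 10.67 in the control, with 5 of 7 below it. The differences were -0.35 (SE 0.33) and -0.14 (SE 0.26). The other E cyclin, Ccne2, named outside the rule, differed by 0.58 (SE 0.45, limma adjusted p = 0.794), with readings of 4.60 to 5.97 in the resistant tumours and 4.60 in the control, near background.

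**Figure D3:**
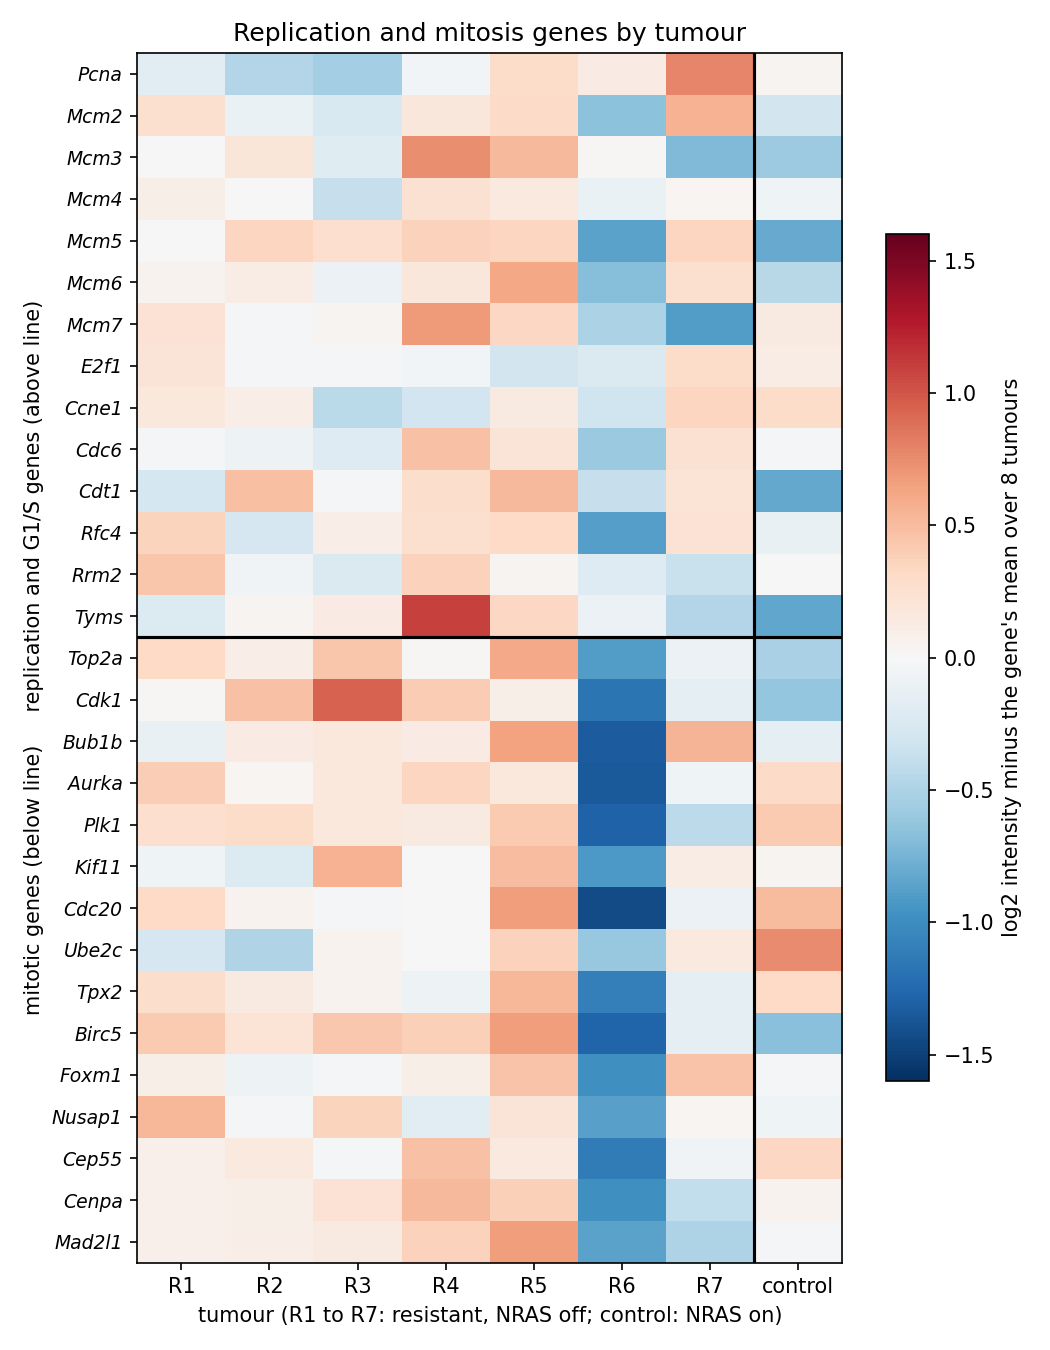
Log2 intensity of each gene minus its own mean over the 8 tumours (colour), for resistant tumours R1 to R7 and the control, with replication and G1/S genes above the line and mitotic genes below it. All 15 mitotic genes are lowest in R6 as read, where Cdc20 reads 9.97 against 11.90 in the control. Ube2c was not above background in R6, so its rank there is not resolved.

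The mitotic genes varied mainly through resistant tumour 6, which was singled out after its values were seen. It had the lowest reading of the 8 tumours in 15 of 15 mitotic genes (100%) and in 5 of 14 replication genes (35.7%), where it was lowest in 23.4% of all genes. Ube2c, among the 15, was above background on 5 of the 8 arrays and not in tumour 6, so its rank there is not resolved. In Birc5 the rank holds for the probe used, while the further probes were lowest in the control. Cdc20, which activates the anaphase-promoting complex, read 9.97 in tumour 6, from 11.31 to 12.07 in the other 6 resistant tumours and 11.90 in the control, 3.79-fold below the control. Plk1, the polo kinase of mitotic entry and the centrosomes, read 9.14 in tumour 6, from 10.02 to 10.86 in the other 6 and 10.85 in the control, 3.27-fold below it. Aurka, the Aurora kinase of the spindle poles, read 8.27 in tumour 6, from 9.54 to 10.01 in the other 6 and 9.92 in the control, 3.14-fold below it. In these 3 genes tumour 6 lay below all other tumours, and the control lay inside the range of the other 6 resistant tumours.

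Tpx2, which brings Aurora A to the spindle, read 6.49 in tumour 6, from 7.44 to 8.11 in the other 6 and 7.90 in the control. Bub1b, the spindle checkpoint kinase BubR1, read 7.36 in tumour 6, from 8.57 to 9.33 in the other 6 and 8.55 in the control. Cenpa, the histone of centromeres, read 11.82 in tumour 6, from 12.41 to 13.32 in the other 6 and 12.86 in the control. Tumour 6 was 2.65-fold, 2.29-fold and 2.05-fold below the control in these 3 genes. Cep55, a protein of the final cut between daughter cells, was not above background in tumour 6, at least 2.53-fold below the control at 6.46. Ube2c, the ubiquitin-conjugating enzyme of the anaphase-promoting complex, was not above background there either, at least 1.88-fold below the control at 6.03. As read, 8 of 15 mitotic genes were at least 2-fold lower in tumour 6 than in the control (7 with the bounds in place of the undetected values). The same held for 0 of 14 replication genes, where 13.2% of all genes were that much lower. Each of these folds sets a single array against a single array, with no replicate.

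A further 4 mitotic genes were lowest in tumour 6 but less than 2-fold below the control there. Kif11, the motor that pushes spindle poles apart, read 6.30 there, from 7.01 to 7.78 in the other 6 resistant tumours and 7.27 in the control. Foxm1, a transcription factor of mitotic genes, read 7.12 in tumour 6, from 8.02 to 8.56 in the other 6 and 8.08 in the control. Mad2l1, a spindle checkpoint protein, read 8.78 in tumour 6, from 9.14 to 10.30 in the other 6 and 9.62 in the control. Nusap1, which binds spindle microtubules, read 8.57 in tumour 6, from 9.25 to 9.97 in the other 6 and 9.36 in the control. In all 4 genes the control lay inside the range of the other 6 resistant tumours.

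In Top2a, Cdk1 and Birc5, as in Bub1b, the control came next to tumour 6 at the low end. Top2a, the topoisomerase that untangles sister chromatids, read 8.65 in tumour 6, from 9.45 to 10.14 in the other 6 and 9.02 in the control. Cdk1, the kinase that starts mitosis, read 9.10 in tumour 6, from 10.12 to 11.21 in the other 6 and 9.65 in the control. Birc5, survivin of the chromosomal passenger complex, read 9.61 in tumour 6, from 10.74 to 11.56 in the other 6 and 10.22 in the control. In all 3 genes the other 6 resistant tumours lay above the control without overlap. With all 7 tumours the differences were 0.59, 0.71 and 0.77 (limma adjusted p from 0.799 to 0.82).

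Without tumour 6, 0 of 29 genes passed (limma, smallest adjusted p = 0.143 for Mcm5), where 0.422% of 10180 genes passed. At an unadjusted p under 0.05 there were 6 of 29 (20.7%), where 10.9% of all genes had one: Mcm5, Cdt1, Birc5, Top2a and Cdk1 higher and Ube2c lower. All 6 remaining tumours lay above the control in 9 of 29 genes (31%), where 16.4% of all genes did so. These were the replication genes Mcm2, Mcm5, Mcm6, Cdt1 and Tyms and the mitotic genes Top2a, Cdk1, Bub1b and Birc5. With all 7 tumours the count above the control was 2, so tumour 6 decides it. Tumour 6 was left out after its low readings in these same genes were seen. The higher counts follow in part from that choice, and the shares over all genes do not correct for it. Ube2c was the 1 gene below the control in all 6, as it was in all 7. The median SD among resistant tumours was 0.51 for mitotic genes with tumour 6 and 0.29 without it, and 0.40 and 0.30 for replication genes, against 0.35 and 0.30 over all genes.

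Ube2c had the most negative difference of the 29 genes. It read 5.34, 5.29, 5.65 and 5.44 in resistant tumours 3, 4, 5 and 7 and was not above background in tumours 1, 2 and 6, against 6.03 in the control. All 7 lay below the control, and the mean log2 difference was -0.86 (SE 0.37, limma adjusted p = 0.604), on a mean that includes 3 undetected values. Cdc20, Plk1, Tpx2 and Cep55 were each below the control in 6 of 7 resistant tumours, with mean differences of -0.57, -0.47, -0.36 and -0.37 (limma adjusted p from 0.871 to 0.905). Cep55 was detected in 6 of the 7.

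**Figure D4:**
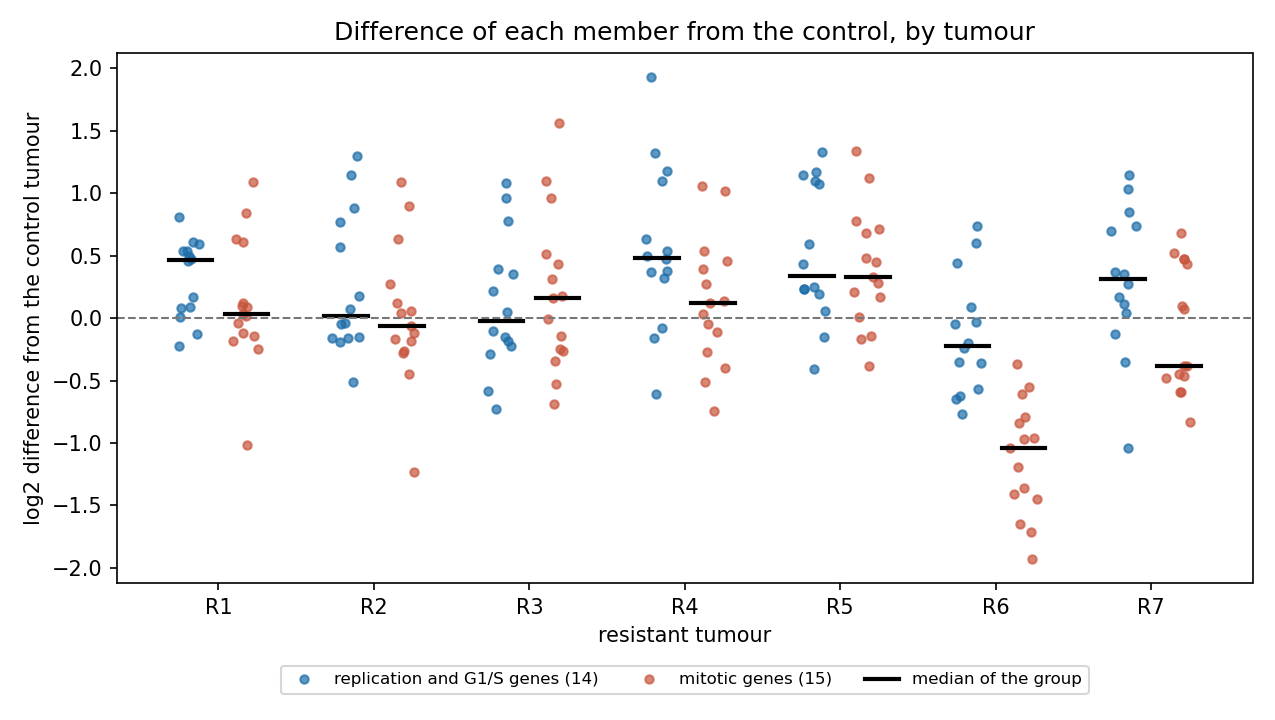
Log2 difference of each gene from the control in each resistant tumour (R1 to R7), for 14 replication and G1/S genes and 15 mitotic genes, with the median of each group as a bar. The medians are -0.22 and -1.04 in R6 and 0.31 and -0.38 in R7, where the mitotic median is 0.07 with only the genes detected on all 8 arrays.

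Set side by side, the groups separated most in resistant tumour 6. The median log2 difference from the control was -0.22 for replication genes and -1.04 for mitotic genes in tumour 6, a gap of 0.82 (mitotic median -0.97 with Cep55 and Ube2c at their bounds). In tumour 7 it was 0.31 and -0.38, a gap of 0.70, but with only the genes detected on all 8 arrays its mitotic median turned to 0.07 and the gap was 0.24. In tumour 1 it was 0.47 and 0.03, and in tumour 4 it was 0.49 and 0.12. Tumour 2 had 0.01 and -0.06, tumour 5 had 0.34 and 0.34, and tumour 3 had -0.02 and 0.16. Over the 7 tumours the gap averaged 0.32 ± 0.37 (SD, n = 7), from -0.18 to 0.82, so its mean was smaller than its spread. The mean includes tumour 6, which has the largest gap, and without it the gaps ran from -0.18 to 0.70. The gap was above 0 in 6 of 7 tumours, and in 4 of 7 with only the genes detected on all 8 arrays, where it was 0.75 in tumour 6, 0.37 in tumours 1 and 4, -0.03 in tumour 2, -0.20 in tumour 3 and -0.11 in tumour 5. No test was made of it, and each value leans on the same control array.

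Within a tumour the genes of a group differed widely. In tumour 4 the replication genes ran from -0.62 for Ccne1 to 1.93 for Tyms relative to the control. In tumour 7 they ran from -1.05 for Mcm7 to 1.16 for Mcm5, while Pcna had its highest reading of all 8 tumours. Tumour 5 had the highest reading of 8 mitotic genes, where it was highest in 10.5% of all genes, and tumour 4 had the highest reading of 6 replication genes, where it was highest in 10% of all genes. Tumour 5 was at least 2-fold above the control in 5 replication and 2 mitotic genes, where 6.59% of all genes were that much higher. Tumour 4 was close to it, with 4 replication and 2 mitotic genes, where 6.68% of all genes were that much higher. Each other resistant tumour had at most 2 such genes in either group.

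Markers of other cells differed in tumour 6 as well. Fibroblast genes summed to 13.14 in tumour 6 (log2 of the summed intensity of 8 of 8 genes), 13.93 to 15.47 in the other 6 resistant tumours and 15.32 in the control. Erythroid genes (4 of 7 measured) summed to 7.70 in tumour 6, 12.52 to 14.54 in the other 6 and 13.35 in the control. Macrophage genes (8 of 11) summed to 14.54 in tumour 6, 13.82 to 14.52 in the other 6 and 13.22 in the control. Endothelial genes (7 of 8) summed to 10.04 in tumour 6, 10.44 to 11.36 in the other 6 and 10.62 in the control. Lymphocyte genes (5 of 10) summed to 8.38 in tumour 6, 7.60 to 11.12 in the other 6 and 8.60 in the control. Housekeeping genes (7 of 10) summed to 16.17 in tumour 6, 16.29 to 16.52 in the other 6 and 16.48 in the control. Their part in the low mitotic readings of tumour 6 was not tested. Muscle genes, high in tumours 1 and 2, summed to 11.11 in tumour 6. Keratinocyte genes (2 of 7 measured) summed to 9.66 in tumour 6, 8.15 to 9.66 in the other 6 and 8.71 in the control, and adipocyte genes (3 of 6) to 6.36 in tumour 6, 6.54 to 9.40 in the other 6 and 6.35 in the control.

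Further probes of the same genes bear on how large the differences were. Of 29 genes, 8 had more than 1 detected probe, which gave 13 further probes. In Birc5 the probe used differed by 0.77, and its other probes by 1.54 (SE 0.66) and 1.55 (SE 0.75), with all 7 resistant tumours above the control on both (limma adjusted p = 0.584 and 0.604 in a fit over 14190 probes). On these probes the resistant tumours read 8.45 to 10.41 and 8.57 to 10.85, and the control 8.31 and 8.55. The lowest of these were the readings of tumour 6, slightly above the control. On the probe used, tumour 6 was below it, at 9.61 against 10.22. In Mcm6 the other probe read 8.82 to 9.88 in the resistant tumours and 8.12 in the control, with a difference of 1.26 (SE 0.37, limma adjusted p = 0.41) against 0.51 on the probe used. In Tyms a second probe detected on all arrays differed by 0.72 (SE 0.41), with all 7 above the control. Its weaker probes, detected on 6 and 3 arrays, differed by 0.42 (6 of 7 above) and 0.00 (3 of 7 above). In Rfc4 a weaker probe, detected on 7 arrays, read 5.40 to 5.81 in the resistant tumours and 5.22 in the control. It differed by 0.42 (SE 0.24) with all 7 above, against 0.13 on the probe used, and tumour 6 at 5.60 was not the lowest. The further probes of Rrm2, Foxm1 and Nusap1 differed by 0.07, -0.01 and 0.28, against 0.01, 0.02 and 0.08 on the probes used. That of Nusap1 was detected on 2 arrays. On that of Rrm2 tumour 6 was lowest, at 7.50, which it was not on the probe used.

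Cdc20 was the gene whose probes disagreed most. Its 3 strongest probes differed by -0.57, -0.42 and -0.23, and the remaining one by 1.49 (SE 1.05). On that probe resistant tumours 1 to 5 read 7.40, 8.15, 8.02, 8.20 and 8.90, tumours 6 and 7 read 6.18 and 5.75, and the control read 6.03. Of 19 mitotic probes detected on all 8 arrays, tumour 6 was lowest in 16, but 13 of the 19 are the probes already used above. Among the further ones it was lowest on that of Foxm1, at 6.83, and on the Cdc20 probes that read 8.78 and 8.27 there. The exceptions were both further probes of Birc5, lowest in the control, and this probe of Cdc20, lowest in tumour 7. Of 17 such replication probes, 14 of them used above, tumour 6 was lowest in 6. The arrays do not show which transcript form each probe reads.

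**Figure D5:**
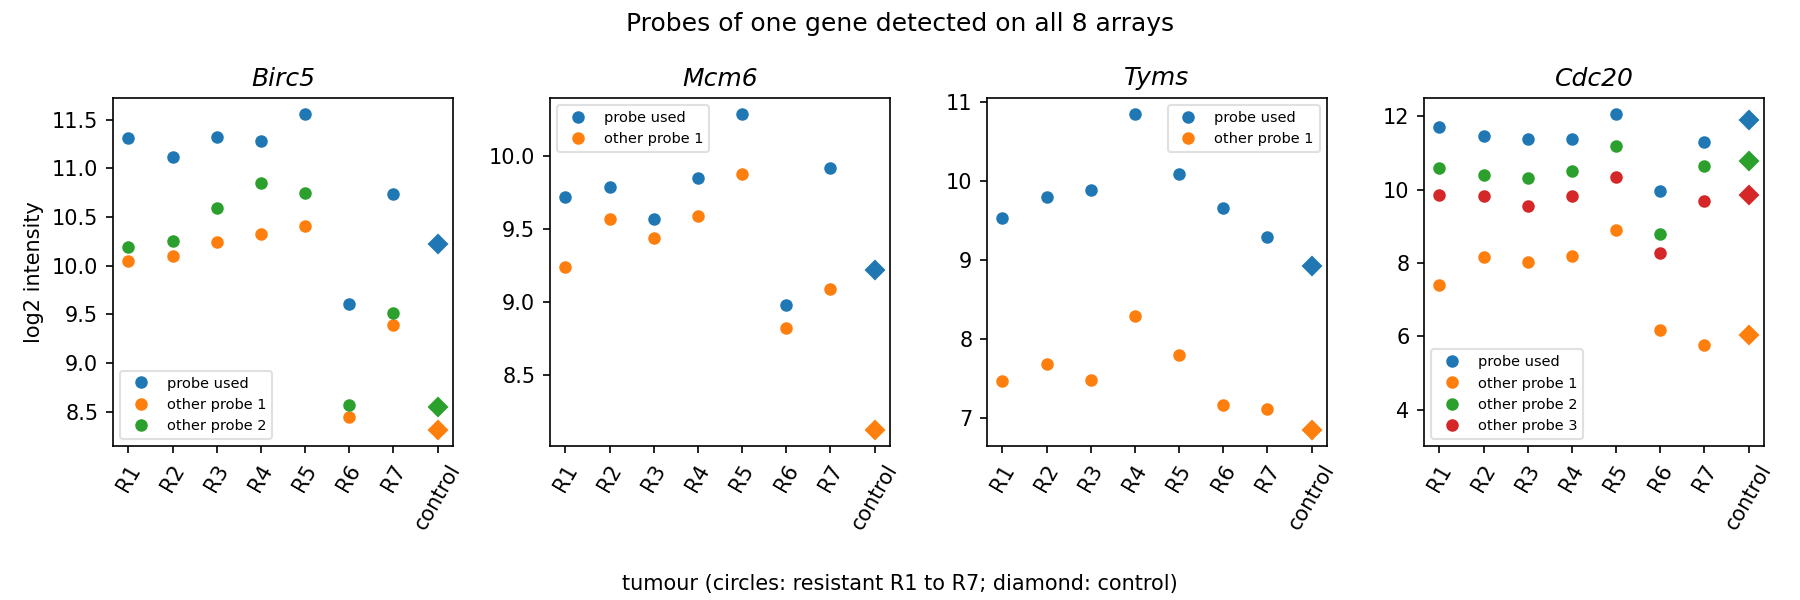
Log2 intensity of every probe detected on all 8 arrays for Birc5, Mcm6, Tyms and Cdc20, with resistant tumours R1 to R7 as circles and the control as a diamond. On both further Birc5 probes the control lies at 8.31 and 8.55, below all resistant tumours, and on 1 of 4 Cdc20 probes R7 is lowest at 5.75.

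The rest of the cell cycle machinery was read through 8 further lists of 169 genes, of which 125 were measured. Of these 0 passed (limma, smallest adjusted p = 0.371), where 0.22% of all genes passed. At an unadjusted p under 0.05 there were 5 of 125, where 8.21% of all genes had one. All 7 resistant tumours lay above the control in 10 (8%) and below it in 12 (9.6%), against 13.3% and 17% of all genes. Among 32 other genes of origins and forks 4 were above the control in all 7 and 0 below. Orc6, a subunit of the origin recognition complex, read 10.28 to 10.57 in the resistant tumours and 9.68 in the control, a difference of 0.75 (SE 0.21, limma adjusted p = 0.371). Rpa2, a subunit of the single-strand binding protein, read 6.75 to 8.25 in the resistant tumours and 6.41 in the control, a difference of 1.43 (SE 0.48). Tipin, a fork protection factor, differed by 0.34. Among 13 other genes of nucleotide supply 2 were above in all 7 and 0 below. Dtymk, thymidylate kinase, which acts on the product of Tyms, read 9.49 to 10.83 in the resistant tumours and 9.33 in the control, and Dut, which clears dUTP, differed by 0.50.

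Other lists, mitotic and not, had medians below 0 in tumour 6 too, except that of G1 control at 0.12. In 21 further genes of spindle and cytokinesis the median difference of tumour 6 from the control was -0.94, and tumour 6 was lowest in 18 of them, where 23.4% of all genes had it lowest. In the other 6 resistant tumours the median of that list was between 0.09 and 0.28. In 14 kinetochore and checkpoint genes it was -0.39 in tumour 6, lowest in 11, and 0.15 to 0.46 in the other 6. In the 32 genes of origins and forks it was -0.27 in tumour 6, lowest in 20, and 0.10 to 0.47 in the other 6. In 13 genes of nucleotide supply it was -0.49 in tumour 6, lowest in 7, and -0.13 to 0.74 in the other 6. In 9 checkpoint genes of DNA damage it was -0.42 in tumour 6, lowest in 7, and -0.17 to 0.26 in the other 6. Among 10 condensin and cohesin genes it was -0.34 in tumour 6, lowest in 6, close to the low end of the -0.30 to 0.07 in the other 6. One of them, Ncaph, was at 7.74 in tumour 6, 9.13 to 9.47 in the other 6 and 9.49 in the control. In the kinetochore and spindle lists, genes with all 7 tumours on one side included Zw10 above the control (difference 0.72, SE 0.29) and Dlgap5 below it (difference -0.59, SE 0.46). Mis12 and Pttg1 were detected on 2 arrays each and Ncapg2 on 5, so no size is given for them. Smc1a, a cohesin subunit, was below the control in all 7 (difference -0.12).

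Regulators of the cycle were measured in 26 genes of the transcription and G1 lists. In the 12 transcription genes the median difference from the control was -0.33 in tumour 6, lowest in 5, and -0.25 to 0.21 in the other 6. In the 14 G1 genes it was 0.12 in tumour 6, lowest in 3, and -0.55 to 0.09 in the other 6. E2f5, an E2F that represses with p130, read 8.56 to 9.02 in the resistant tumours and 9.55 in the control, a difference of -0.82 (SE 0.23, limma adjusted p = 0.379). Cdc25a, the phosphatase that activates cyclin E kinase, read 6.40 to 6.94 in the resistant tumours and 7.51 in the control, a difference of -0.83 (SE 0.25, limma adjusted p = 0.397). Rb1 and E2f3 were also below the control in all 7, with a mean difference of -0.70 each. Mybl2, the B-MYB partner of MuvB and named outside the rule, read 6.09 in tumour 6, 7.17 to 8.24 in the other 6 resistant tumours and 6.72 in the control. Cdkn2a, the Ink4a/Arf locus that Cre was meant to delete, was detected on all 8 arrays. It read 10.52 in tumour 6, 8.26 to 9.23 in the other 6 and 8.23 in the control. Whether this signal comes from cells that kept the locus, or from sequence left after deletion, was not tested. Cdkn1a, the p21 inhibitor, read 7.61 in tumour 6, 9.76 to 11.10 in the other 6 and 11.47 in the control. Ccnd1, cyclin D1, was below the control in all 7 and differed by -0.40, with 14.89 in tumour 6. In 9 checkpoint genes Brca2 was above the control in all 7 (difference 0.51) and Atm below it (difference -0.67).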

How the data were processed

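Total RNA of 8 mouse melanomas was labelled with biotin and read on Illumina bead arrays, and GenomeStudio is named in the submitters' processing notes. The table used holds, per the file headers, a probe intensity that the authors deposited without normalization, with a detection p-value that the authors deposited beside each. The authors' deposited normalized values, on the log2 scale, served as an alternative. Control probes were not in the table, so neqc (limma 3.58.1, R 4.3.3) estimated the background through those p-values, added an offset of 16 and normalized by quantiles on the log2 scale. Genes were kept at a detection p under 0.05 on at least 1 array, with the probe of highest mean, which left 10461 genes. Resistant tumours (7) and control (1) were compared in limma by lmFit and eBayes, with Benjamini-Hochberg adjustment over all genes and a threshold of 0.05. The fit was run on simulated data with planted shifts and noise drawn independently for each gene. That run does not speak to genes that vary together through a single tumour, or to what is particular to the 1 control array.

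The members and lists were chosen with earlier results of these data known. The text names all members that the detection rule kept. In each other list it names at most 3 genes per direction with the smallest unadjusted p among those with all 7 resistant tumours on 1 side of the control. Promoters are from the RefSeq table of GRCm38.p6. No batch is named in the labels. Alternatives changed the background correction, the scaling, the detection filter, the probe rule, the variance model and the tumours used.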

Additional observations from a re-analysis of the deposited data

Results flagged for a closer look

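Resistant tumour 6 lay far from the other 6 resistant tumours in 8 of 29 genes, 7 mitotic and 1 of replication, by Dixon's gap test among the 7 resistant tumours. That is 27.6% of the 29 genes, where the same test marked tumour 6 as lowest in 2.23% of all 10461 genes and some tumour in 13.1%. Chance alone marks about 1 in 20 groups, and the genes share the same arrays. Cdc20 read 9.97 in tumour 6, against 11.31 to 12.07 in the other 6. For the remaining genes the value in tumour 6 stands before the range of the other 6. Aurka read 8.27, against 9.54 to 10.01, and Bub1b 7.36, against 8.57 to 9.33. Tpx2 read 6.49, against 7.44 to 8.11, and Birc5 9.61, against 10.74 to 11.56. Foxm1 read 7.12, against 8.02 to 8.56. Cep55 read 5.01 and was not above background there, against 6.08 to 6.60. Mcm5, the replication gene, read 10.48, against 11.34 to 11.71.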

How the results depend on the processing

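No member passed the threshold under any alternative (limma, lowest adjusted p = 0.143). Tumour 6 was lowest in 15 mitotic genes in each alternative that kept it, counting Ube2c, which was undetected there. Median scaling, which put the median of all genes at -0.20, reversed the differences of Bub1b (-0.10), Cdc6 (-0.14), Foxm1 (-0.19), Mad2l1 (-0.29), Mcm4 (-0.25), Nusap1 (-0.22), Rfc4 (-0.08) and Rrm2 (-0.21). It also gave replication medians of 0.16, -0.34 and -0.51 in tumours 1, 3 and 6, and turned the replication median of tumour 2 to -0.20 and the mitotic medians of tumours 1, 3 and 4 to -0.27, -0.26 and -0.08, with 6 members and 28 other pathway genes below the control in all 7. The mean of a gene's probes gave 0.07 for Cdc20 and 16 other pathway genes above the control. Without tumours 1 and 2, the muscle-rich pair, Kif11 was 0.00, Mad2l1 -0.02, Nusap1 -0.01, Pcna 0.08 and Rrm2 -0.07, with 0 genes higher and 5 lower. Genes lower numbered 8 with no background correction, 8 with the authors' values and 35 with no detection filter, which gave 4 higher and 4 members above the control, undetected ones included. The trend and robust variance gave 3 higher. With members detected on all 8 arrays alone, the gap in tumour 7 was 0.24 and its mitotic median 0.07. In all, 15 of 351 recomputed medians and gaps by tumour changed sign. With the bases before the start alone, 50% of mitotic genes held the CHR and 38.5% of replication genes the E2F core. The cause of these changes was not tested. Leaving Ccna2 out of the mitotic list changed nothing, since its probe was detected on 0 arrays.

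Leaving out 1 tumour at a time gave 1 to 8 genes higher and 5 to 50 lower, with 8 and 50 without tumour 1. Members above the control in all tumours numbered 2 to 9 (9 without tumour 6), members below it 1 to 4 (4 without tumour 5), and other pathway genes above it 10 to 32. Differences ran from -0.04 to 0.14 for Cdc6, -0.15 to 0.10 for Cenpa and Kif11, -0.05 to 0.18 for Foxm1, -0.09 to 0.16 for Mad2l1, 0.00 to 0.23 for Nusap1, -0.18 to 0.05 for Pcna and -0.07 to 0.07 for Rrm2. No paired analysis was possible because the control is 1 tumour without a replicate number. The 1 control and readings near background, as for Ube2c and Cep55, limit what the arrays resolve.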
